A study of Mus musculus with 9 samples.

Results

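Stefins and cystatins are protein inhibitors of cysteine proteases, and 9 genes of this superfamily were followed through mouse bone marrow: Stfa1, Stfa2, Stfa3, Stfa2l1, BC100530 and 2010005H15Rik of the stefin gene cluster, together called the 6 stefins below, and Cstb, Cst3 and Cst7. They were chosen by symbol from the 9 count tables, which list 15265 genes between them, and a symbol with no entry in a table was counted as 0. Of the 9 genes, 8 had an entry in every table, and 2010005H15Rik had none in Pot1a wt/wt 3. The 9 genes held 20817 of 2616983 counts, of which 19579 belonged to the 6 stefins. The marrow was whole and unsorted, from C57BL/6 mice at an age of 2 to 3 weeks, and was profiled by Drop-seq, in which a barcoded bead tags the RNA of each cell at its 3′ end within a droplet. There were 4 libraries of NG2-cre/Pot1a fl/fl mice and 5 libraries of NG2-cre/Pot1a wt/wt mice. NG2-cre is a transgene that expresses Cre recombinase from the promoter of Cspg4 (NG2), which is active in pericytes and mesenchymal stromal cells of the whole body. Both groups carried it, and only the Pot1a fl/fl group had loxP-flanked alleles of Pot1a, the gene of a telomere-binding protein, so the deletion was aimed at stromal and not at haematopoietic cells. No label links a library to a mouse, and the legend of the study names fewer mice in a group than there are libraries, so libraries may share mice, and every p given here measures the spread between libraries, which may be partly technical.

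Stefins (type 1 cystatins) are small proteins without a signal peptide that stay in the cytosol, where they bind cathepsins and related papain-like proteases that have escaped from lysosomes or been taken up. Mice carry a cluster of stefin A genes where humans have a single CSTA, and these genes are known for their expression in neutrophil precursors. Cstb encodes the widely expressed cystatin B (stefin B), Cst3 encodes the secreted cystatin C, which is abundant in monocytes, macrophages and dendritic cells, and Cst7 encodes cystatin F, which is sorted to endosomes and lysosomes and restrains cathepsin C, the protease that activates the serine proteases of neutrophil and lymphocyte granules.

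All 6 stefins lay within one stretch of chromosome 16 in the mm10 annotation (GENCODE, GRCm38). From left to right these were Stfa2l1 (chr16:36156811-36161953, plus strand), 2010005H15Rik (chr16:36221468-36257444, plus), Stfa1 (chr16:36276951-36285373, plus), BC100530 (chr16:36359382-36367748, minus), Stfa2 (chr16:36403992-36408457, minus) and Stfa3 (chr16:36450537-36455392, minus). Cst3 (chr2:148871722-148875692, minus) and Cst7 (chr2:150570415-150578944, plus) shared chromosome 2, and Cstb was at chr10:78425669-78427622 on the plus strand. The transcripts of the cluster were close copies: the best local match was 97.1% identical between Stfa1 and BC100530 and 96.5% identical between Stfa2 and Stfa2l1. In the last 300 bases of the transcript, where 3′ tags fall, the share of 50-base windows that also occurred in another gene was 66.1% for BC100530, 51.0% for Stfa1, 33.9% for 2010005H15Rik, 25.1% for Stfa2 and 24.3% for Stfa2l1. It was 0% for Stfa3, Cstb, Cst3 and Cst7. Counts of the close pairs are therefore uncertain as to which copy a read came from, and Stfa3 is the stefin whose counts carry no such overlap.

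Sequences before the start of the gene were matched in RefSeq (GRCm38.p6) for 7 of the 9 genes, all but BC100530 and Cstb. Those of the 3 stefins that differed most plainly by stage below, and of Cst7, which had the opposite pattern, are shown, each 5′ to 3′ on the strand of its gene. Capitals mark matches on either strand to GCAAT, a core bound by C/EBP factors, or to GAGGAA, a core bound by PU.1; both factors are regulators of granulocyte development. The spans are chr16:36408458-36408613 (minus strand) for Stfa2, chr16:36156561-36156810 (plus) for Stfa2l1, chr16:36455393-36455642 (minus) for Stfa3 and chr2:150570165-150570414 (plus) for Cst7. For Stfa2 only the 156 bases outside the annotated gene are shown.
Stfa2: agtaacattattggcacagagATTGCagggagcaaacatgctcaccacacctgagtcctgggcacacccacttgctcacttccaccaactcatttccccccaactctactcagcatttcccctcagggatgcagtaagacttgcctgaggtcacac
Stfa2l1: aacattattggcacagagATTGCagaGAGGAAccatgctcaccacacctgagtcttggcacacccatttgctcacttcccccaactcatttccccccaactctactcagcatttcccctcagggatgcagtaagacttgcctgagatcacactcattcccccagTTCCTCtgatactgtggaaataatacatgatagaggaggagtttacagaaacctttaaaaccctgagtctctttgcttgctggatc
Stfa3: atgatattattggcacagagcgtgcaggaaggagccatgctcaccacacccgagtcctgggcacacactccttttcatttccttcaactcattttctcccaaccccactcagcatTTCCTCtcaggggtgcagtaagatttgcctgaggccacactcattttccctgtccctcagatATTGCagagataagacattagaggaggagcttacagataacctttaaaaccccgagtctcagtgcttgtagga
Cst7: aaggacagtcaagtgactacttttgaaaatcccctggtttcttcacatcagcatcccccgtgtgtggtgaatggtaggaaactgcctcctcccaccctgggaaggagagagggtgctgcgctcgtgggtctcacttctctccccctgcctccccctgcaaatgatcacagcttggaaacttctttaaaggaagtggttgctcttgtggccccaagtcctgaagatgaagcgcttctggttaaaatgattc

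The 3 stefin sequences shown resembled each other, with 90.8% identity between Stfa2 and Stfa2l1 and 82.0% between Stfa2 and Stfa3 over the 250 bases before the RefSeq start. That of 2010005H15Rik was less alike, with 57.6% identity to Stfa2, close to the 56.4% between Stfa2 and Cst7. A match to GCAAT was present in 1 copy in each of the 3 stefin sequences shown. Matches to GAGGAA were present in 2 copies for Stfa2l1 and in 1 copy for Stfa3, and the Cst7 sequence held neither. Over its full 250 bases Stfa2 also had 1 match to GAGGAA, outside the bases shown. The stefins Stfa1 and 2010005H15Rik, not shown, had 0 matches to GCAAT over their 250 bases, and 1 and 0 matches to GAGGAA. Of 32851 mouse promoter windows of 250 bases, 23.1% held a match to GCAAT and 23.3% held a match to GAGGAA. Such matches are therefore common and are given as a description.

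Levels below are CPM, the share of a gene in the summed counts of a class of cells in a library scaled to 1000000, and are not divided by transcript length. Library depth ran between 119459 counts (Pot1a fl/fl 3) and 465277 counts (Pot1a fl/fl 1), and 899 of 900 barcodes were kept. Pot1a wt/wt 2 and 3 shared 19 barcodes whose counts correlated between both tables at 0.932 to 0.965 across genes, against at most 0.730 with any other cell, so some cells stood in both tables. Both libraries were kept. Taking each shared cell once left the calls of members by genotype and between stages as they were in the fits of summed counts below. The sign-flip test used below for Cst7 and Cstb was not rerun in this way. The libraries with the fewest counts, Pot1a fl/fl 3 and Pot1a wt/wt 5 (143345 counts), also had the highest summed stefin level in late neutrophil-like cells (136108 and 112978 CPM, against 20213 to 75815 CPM in the other libraries) and in B-lineage-like cells (1342 and 2509 CPM against 41.6 to 1319 CPM). The part of depth in these levels was not tested.

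Cells were clustered without the 9 genes, and clusters were named from marker genes; the rule that set the granulocyte stages was written after the leading genes of the clusters had been seen. The promyelocyte-like cluster (134 cells) was led by the primary granule genes Mpo, Ctsg, Elane and Prtn3. The myelocyte-like cluster (103 cells) was led by the secondary granule genes Camp, Ngp and Lcn2, and the late neutrophil-like cluster (89 cells) by Mmp8, Cxcr2, Retnlg and Mmp9. Summed over their lists, primary granule markers were at 19778, 1885 and 941 CPM in promyelocyte-like, myelocyte-like and late neutrophil-like cells, and the late markers were at 1141, 1371 and 12189 CPM in the same order. The secondary granule list did not separate the later stages (134417 CPM in myelocyte-like and 130543 CPM in late neutrophil-like cells). These 3 clusters together are called granulocyte-like. The other classes were monocyte/macrophage-like (65 cells, led by F13a1 and Ccr2), erythroid-like (156 cells), B-lineage-like (228 cells) and an unnamed class of 107 cells led by Mt2 and Car1. The monocyte/macrophage-like name is that of its marker list, of which 13 of 15 measured genes were detected; the macrophage marker C1qa was at 0 counts in these cells. A further 17 cells, too few for a test, were led by the stromal genes Col1a2 and Col1a1 but held 17 of the 21 C1qa counts and all 15 measured genes of the monocyte/macrophage list.

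Pot1a itself had 21.5, 10.7, 8.37 and 39.1 CPM over all cells in Pot1a fl/fl libraries 1 to 4, and 11.9, 29.4, 30.5, 17.8 and 13.95 CPM in Pot1a wt/wt libraries 1 to 5. The groups overlapped. With nearly all cells haematopoietic, this level checks the labels little.

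The 6 stefins were genes of the later granulocyte stages. Granulocyte-like cells held 18513 of their 19579 counts (94.6%). Their summed level was 6528 ± 10259 CPM in promyelocyte-like cells (SD over 9 libraries), 36910.4 ± 23695 CPM in myelocyte-like cells (8 libraries with at least 5 such cells) and 55786 ± 42799 CPM in late neutrophil-like cells (9 libraries). In the other 4 haematopoietic classes the mean lay between 729 CPM in monocyte/macrophage-like and 909 CPM in erythroid-like cells. In the median myelocyte-like cell the 6 genes made up 1.33% of all counts and in the median late neutrophil-like cell 0.993%, and in the richest cell, of the late stage, 24.0%. More than 1% of counts came from stefins in 8 of 134 promyelocyte-like, 62 of 103 myelocyte-like and 44 of 89 late neutrophil-like cells. That was the case in 1 of 228 B-lineage-like cells, and 0 of 65 monocyte/macrophage-like and 0 of 156 erythroid-like cells.

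**Figure D1:**
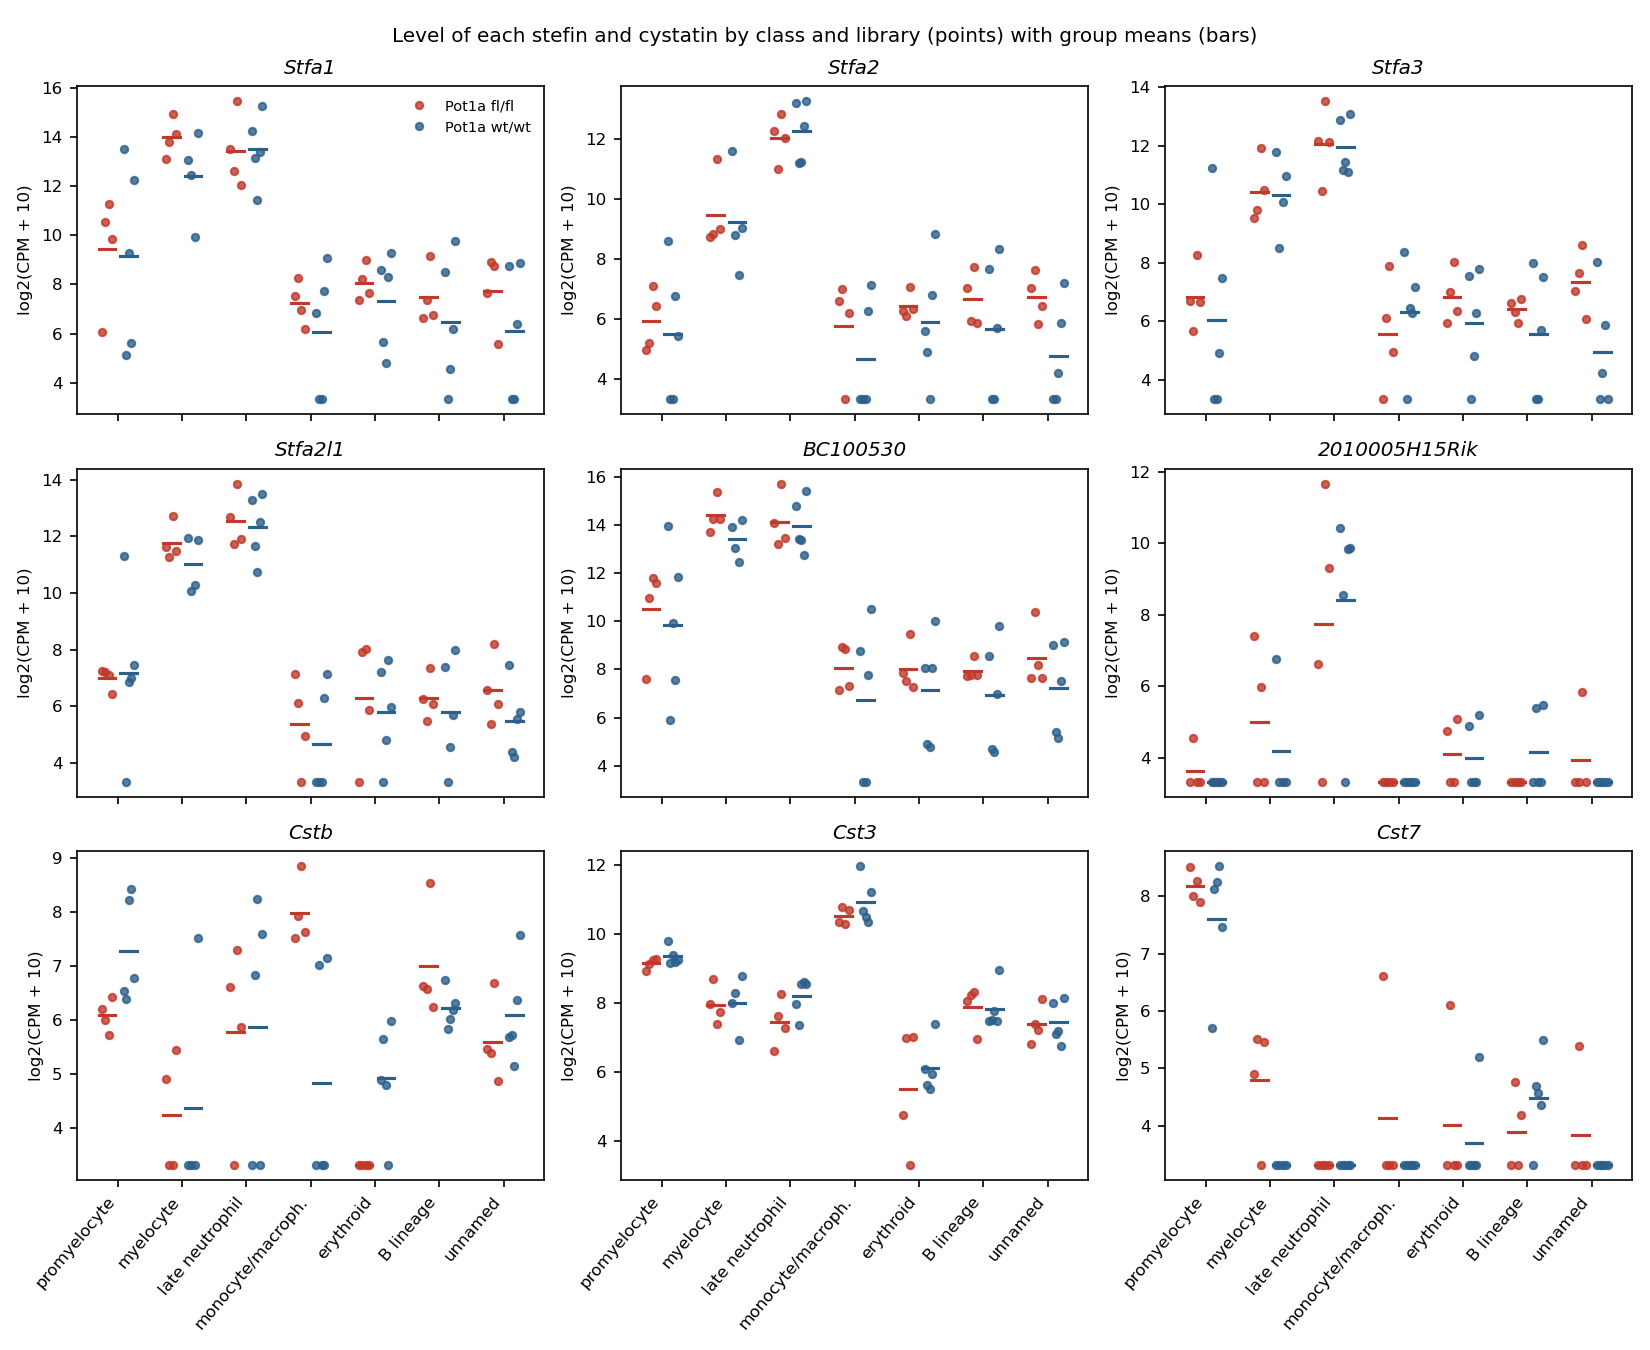
Level of each gene by class, as log2(CPM + 10) of the summed counts of a library's cells (y axis; each point is 1 library with at least 5 cells of the class, horizontal bars are group means, Pot1a fl/fl left of Pot1a wt/wt; the y axes differ between panels). The stefins other than 2010005H15Rik stand high in the myelocyte and late neutrophil classes. 2010005H15Rik stands high in the late neutrophil class only, and there not in every library. Cst3 is highest in the monocyte/macrophage class, and Cst7 is near its floor everywhere but in the promyelocyte class.

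Stfa1 and BC100530, the closest pair of copies, were already high at the myelocyte-like stage, with no further change called at the late stage in the main clustering. This does not show that the later stages had equal levels, and other clusterings gave lower late levels, as described below. In promyelocyte-like cells Stfa1 ran between 24.5 and 11680 CPM with a median of 915 CPM over 9 libraries, and in myelocyte-like cells between 955 and 31604 CPM with a median of 11400 CPM over 8 libraries. In late neutrophil-like cells it ran between 2720 CPM (Pot1a wt/wt 3) and 45172 CPM (Pot1a fl/fl 3), with a median of 10662 CPM over 9 libraries. The ranges of the later stages overlapped widely. BC100530 had medians of 1980 CPM (49.1 to 15740 CPM) in promyelocyte-like, 16977 CPM (5674 to 42405 CPM) in myelocyte-like and 11067 CPM (6854 to 53466 CPM) in late neutrophil-like cells.

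The stages were tested in one fit of summed counts per library and class, with the library as a block (edgeR quasi-likelihood test, Benjamini-Hochberg adjustment over 1366 genes). Of the 9 genes 7 passed the filter on low counts; Cstb and Cst7 did not and are treated separately. In myelocyte-like over promyelocyte-like cells, 6 of these 7 were higher and none was lower, where 45.2% of all genes tested were called and 24.6% were called higher. Stfa1 was higher by 3.75 on the log2 scale (SE 0.45, adjusted p = 6.85e-11) and BC100530 by 3.69 (SE 0.43, adjusted p = 2.04e-11). In late neutrophil-like over promyelocyte-like cells, 55.6% of genes were called and 22.9% called higher, and the same 6 stefins were higher, Stfa1 by 3.88 and BC100530 by 3.85. The median log2 fold over the 7 genes was 3.75 and 5.21 in these contrasts, against 0.13 and -0.26 over all genes tested. These counts and medians include 2010005H15Rik, which passed the filter only through late neutrophil-like cells, where it was high. Its part in them is a description.

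Between late neutrophil-like and myelocyte-like cells the family split. In this contrast 19.8% of genes were called and 4.83% were called higher, and 4 of the 7 genes were higher and none lower. By the edgeR quasi-likelihood test these were Stfa2 (log2 fold 2.44, SE 0.27, adjusted p = 3.37e-11), Stfa3 (1.67, SE 0.27, adjusted p = 3.4e-06), Stfa2l1 (0.92, SE 0.25, adjusted p = 0.00437) and 2010005H15Rik (3.39, SE 0.61). 2010005H15Rik passed the filter on low counts only through late neutrophil-like cells, where it was high. It stays in the count of genes called, but its values are a description and its call is not used as support. For Stfa1 the log2 fold was 0.13 (SE 0.39, adjusted p = 0.849) and for BC100530 0.15 (SE 0.38, adjusted p = 0.819).

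**Figure D2:**
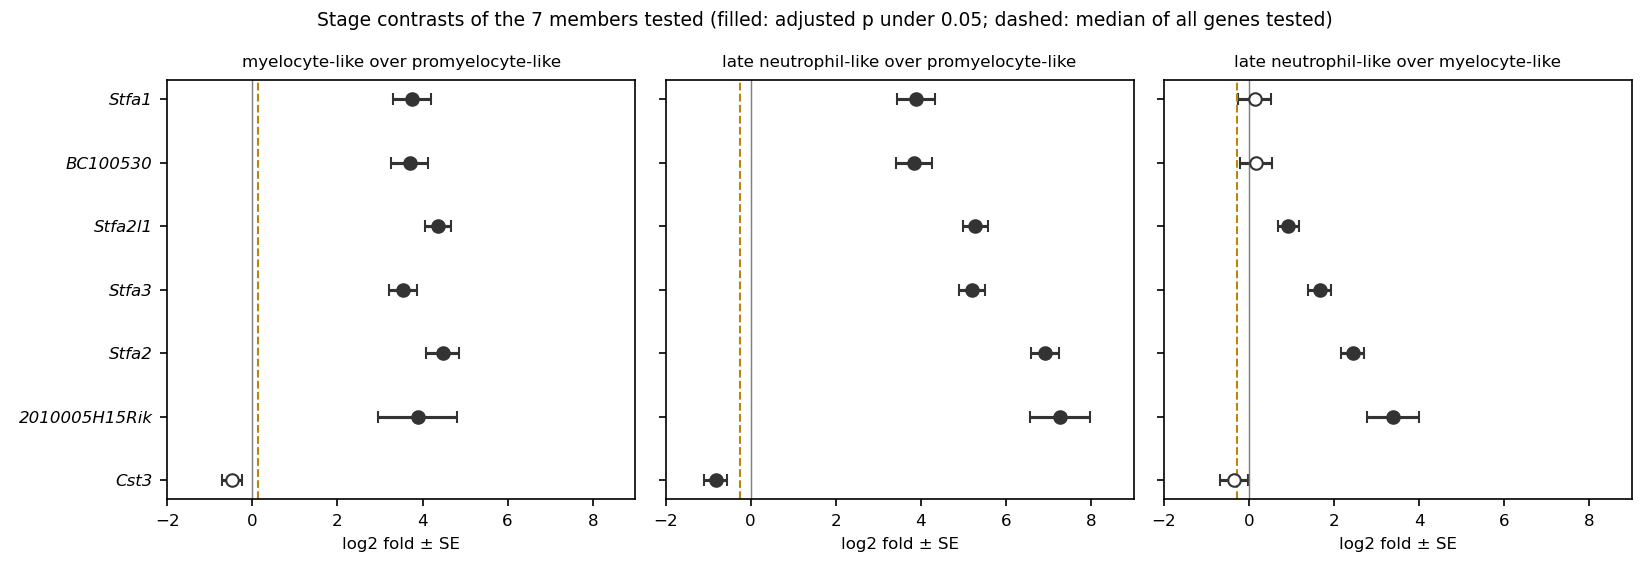
Log2 fold of the 7 genes tested (x axis, points with SE bars; filled, adjusted p under 0.05; open, not) in 3 contrasts between granulocyte stages, with the median of all 1366 genes tested as a dashed line. All 6 stefins are to the right in both contrasts over promyelocyte-like cells, whereas in late neutrophil-like over myelocyte-like cells Stfa1 and BC100530 lie near 0 and Stfa2 and 2010005H15Rik lie farthest right. 2010005H15Rik passed the filter on low counts only through late neutrophil-like cells and is shown as a description.

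How the later cells were divided mattered for this split. Other clusterings drew a smaller late stage, with 36 cells without integration of the libraries, 43 with the 9 genes among the clustered genes and 39 with the whole stefin cluster left out, and Stfa1 then had log2 folds of -1.06, -1.24 and -0.97 over myelocyte-like cells; that of -1.24 was called lower (adjusted p = 0.0025, edgeR quasi-likelihood test). Stfa2l1 was called in none of these 3 clusterings (0.41, 0.41 and 0.16), and Stfa3 in all but that without the stefin cluster (0.84, 0.73 and 0.54). Stfa2 was called under all 19 alternatives that gave this contrast (1.60 to 2.98). The log2 folds of 2010005H15Rik, given as a description, ran from 2.16 to 4.77. Scaling set the centre of the contrast: the median log2 fold of all genes was -0.29 with TMM and -0.01 with median-ratio size factors, and the share of called genes that were higher was 24.4% and 51.9%. Stfa2, Stfa3 and Stfa2l1 were higher under both scalings.

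Stfa2 had the clearest step at the late stage. In late neutrophil-like cells it had 5009, 2049, 7405 and 4271 CPM in Pot1a fl/fl libraries 1 to 4 and 9422, 2354, 2426, 5559 and 9969 CPM in Pot1a wt/wt libraries 1 to 5. In myelocyte-like cells it had 421, 444, 2607 and 508 CPM in Pot1a fl/fl libraries 1 to 4 and 3120.0, 441, 169 and 523 CPM in Pot1a wt/wt libraries 1, 2, 3 and 5. In each of the 8 libraries with both stages the late level was the higher, although ranges over libraries overlapped because Pot1a fl/fl 3 and Pot1a wt/wt 1 were high at the earlier stage. In promyelocyte-like cells Stfa2 averaged 84.7 ± 118 CPM (n = 9), or 48.2 CPM without Pot1a wt/wt 1, under its mean in B-lineage-like cells (109 ± 108 CPM, n = 9), with a log2 fold of -0.27 between them (adjusted p = 0.729, edgeR quasi-likelihood test).

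Stfa3, whose counts share no 50-base window with another gene, had 4537, 1404, 11848 and 4514 CPM in Pot1a fl/fl libraries 1 to 4 and 7567, 2302, 2793, 2209 and 8676 CPM in Pot1a wt/wt libraries 1 to 5 in late neutrophil-like cells. In myelocyte-like cells it had 722, 888, 3884 and 1423 CPM in Pot1a fl/fl libraries 1 to 4 and 3489, 353, 1067 and 2004 CPM in Pot1a wt/wt libraries 1, 2, 3 and 5. The later stage was again the higher in each library. Stfa2l1, the near copy of Stfa2, averaged 6800.4 ± 4470.2 CPM in late neutrophil-like cells (n = 9) and 3151 ± 1785 CPM in myelocyte-like cells (n = 8). With Stfa2 and Stfa2l1 summed, as a level free of errors in dividing reads between these copies, the means were 12185 CPM in late neutrophil-like and 4181 CPM in myelocyte-like cells. With Stfa1 and BC100530 summed they were 37667 and 30962 CPM.

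2010005H15Rik, named Csta2 in RefSeq, was the rarest stefin, with 114 counts in all, 90 of them in late neutrophil-like cells. There it had 88.4, 0, 3258 and 631 CPM in Pot1a fl/fl libraries 1 to 4 and 1367, 366, 0, 914 and 923 CPM in Pot1a wt/wt libraries 1 to 5, so 7 of 9 libraries held a count. It averaged 839 ± 1024 CPM (n = 9), or 536 CPM without Pot1a fl/fl 3, and in myelocyte-like cells 39.0 ± 61.0 CPM (n = 8), or 21.6 CPM without Pot1a fl/fl 1. The promyelocyte-like cells held 1 count. Its call as higher in myelocyte-like than in promyelocyte-like cells was lost without Pot1a fl/fl 1 (edgeR quasi-likelihood test, adjusted p = 0.0822) and by DESeq2 (adjusted p = 0.141).

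The low stefin level of promyelocyte-like cells rested on few cells. Its mean of 6528 CPM fell to 3257 CPM without Pot1a wt/wt 1, in which 1 of only 6 such cells had over 1% of its counts from stefins and the summed level was 32694 CPM. The other libraries had 73.6 to 8865 CPM. Against B-lineage-like cells, 5 of the 7 genes tested were higher in promyelocyte-like cells, among them BC100530 (log2 fold 3.48) and Stfa1 (3.34), in a contrast in which 34.4% of genes were called and 19.1% called higher. Stfa2 (-0.27) did not pass. In monocyte/macrophage-like over B-lineage-like cells, where 42.5% of genes were called, none of the stefins was called by the edgeR quasi-likelihood test, with log2 folds of -0.42 to 0.36 for the 5 other than 2010005H15Rik. In late neutrophil-like over monocyte/macrophage-like cells, where 37.6% were called and 13.9% called higher, these 5 were higher by 6.84 to 7.65 on the log2 scale. The monocyte/macrophage-like cells held only 7 counts of Stfa2l1, 9 of Stfa2 and 10 of Stfa3, so the size of such folds is uncertain. 2010005H15Rik had 0 counts in monocyte/macrophage-like cells, and its fitted folds there are not given.

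Shares of cells with a count told the same stages apart. Cells differed in depth, so each cell with at least 1000 counts was thinned to 1000 counts, and cells with fewer were left out. This kept 122 of 134 promyelocyte-like, 90 of 103 myelocyte-like and 72 of 89 late neutrophil-like cells. Stfa1 was then found in 19.8% of promyelocyte-like, 71.1% of myelocyte-like and 66.0% of late neutrophil-like cells, and Stfa2 in 5.34%, 26.8% and 48.4% in the same order. Unthinned, the shares were 35.1%, 75.7% and 76.4% for Stfa1 and 13.4%, 37.9% and 57.3% for Stfa2. Free RNA in droplets can give counts in cells that do not express a gene, and its part in these shares was not tested. B-lineage-like and erythroid-like cells gave 12.96% and 17.3% for Stfa1 and 7.38% and 8.17% for Stfa2. For the 6 genes together, promyelocyte-like cells (40.8%) were within the range of B-lineage-like (35.6%) and erythroid-like cells (42.4%). Myelocyte-like (90.7%) and late neutrophil-like cells (88.4%) were far above that range. In summed counts, however, BC100530 and Stfa1 were higher in promyelocyte-like than in B-lineage-like cells, as given above. Median depth was 2805, 2376 and 1602 counts per cell in the granulocyte stages, 2123 in B-lineage-like and 2282 in erythroid-like cells.

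**Figure D3:**
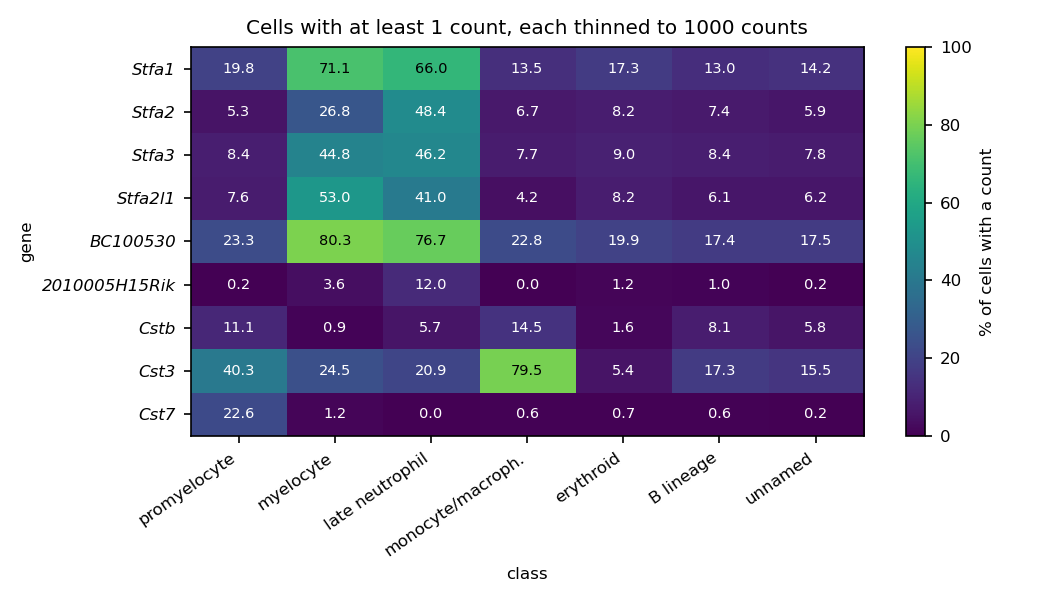
Percent of cells with at least 1 count of each gene (rows) in each class (columns), after thinning each cell to 1000 counts. Cells with fewer than 1000 counts were left out. Colour and printed number give the same value. BC100530 reaches 80.3% of myelocyte-like cells, Cst3 79.5% of monocyte/macrophage-like cells and Cst7 22.6% of promyelocyte-like cells, against 17.4%, 17.3% and 0.567% in B-lineage-like cells.

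The make-up of the stefin counts shifted with stage. These are shares of counts, which are not divided by transcript length, pooled over libraries and given without a test. BC100530 and Stfa1 gave 51.9% and 35.8% of the stefin counts in promyelocyte-like cells, 48.9% and 34.97% in myelocyte-like cells, and 38.0% and 27.2% in late neutrophil-like cells. Stfa2 gave 1.47%, 2.74% and 10.8% in the same order, Stfa3 4.82%, 4.44% and 9.61%, and Stfa2l1 5.93%, 8.84% and 13.1%. The shares in promyelocyte-like cells lean on Pot1a wt/wt 1, whose 6 such cells held 781 stefin counts, against at most 279 in any other library. The few stefin counts of B-lineage-like cells (384 counts) and erythroid-like cells (299 counts) had 13.8% and 12.0% from Stfa2, nearer to the late stage than to the earlier ones.

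**Figure D4:**
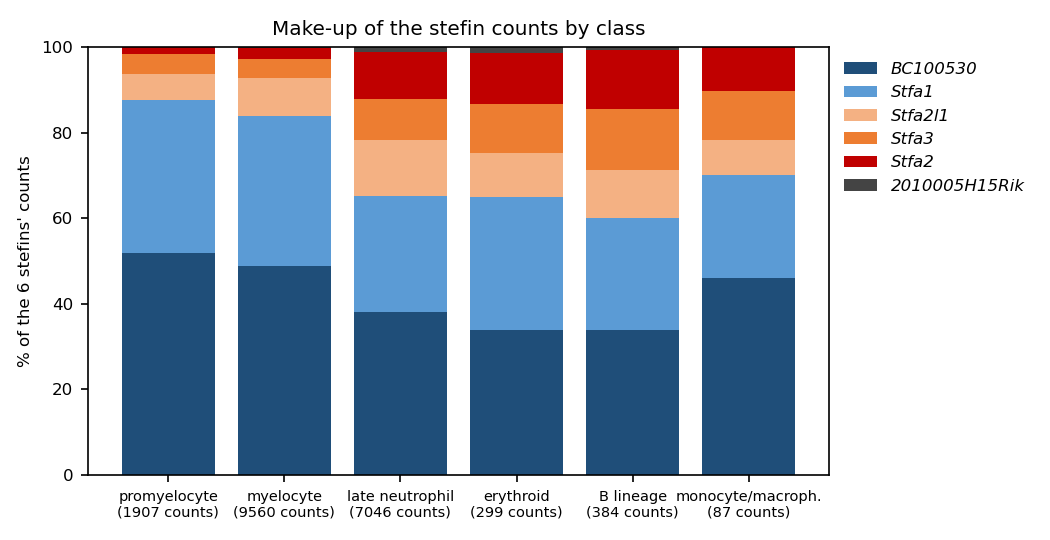
Share of each gene in the counts of the 6 stefins (y axis, %) by class, pooled over the 9 libraries; the number of counts is given under each bar. Stfa2 grows to 10.8% in the late neutrophil class, where BC100530 and Stfa1 shrink to 38.0% and 27.2%.

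Cell by cell the stefins varied together. Over 192 myelocyte-like and late neutrophil-like cells, Pearson's r of log values was 0.757 between Stfa1 and BC100530, 0.742 between Stfa1 and Stfa2l1, 0.768 between Stfa2 and Stfa3 and 0.553 between Stfa1 and Stfa2. The rare 2010005H15Rik had lower values with the other stefins, from 0.374 with BC100530 to 0.518 with Stfa2. With Cst3, Cst7 and Cstb the stefins gave r between -0.05 and 0.13. The cells share libraries and depth, and the close copies share reads, so these values are a description. Across 62 sums by library and class, among 3951 genes, the pattern most like that of Stfa1 was that of BC100530 (r = 0.971), followed by Gm5483 (0.926), another gene of the cluster. For BC100530, Ngp (0.933), a secondary granule protein of the cathelicidin and cystatin superfamily, and S100a9 (0.923), a calcium-binding protein of neutrophils, came next after Stfa1. For Stfa2 the first were Stfa2l1 (0.887) and Ltf (0.88), the iron-binding lactoferrin of secondary granules, and for Stfa2l1 Lcn2 (0.889), a siderophore-binding granule protein, was among the first 5. These sums share libraries and rest on the same few classes.

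Cst3 followed another lineage. In monocyte/macrophage-like cells it had 1316, 1769, 1247 and 1662 CPM in Pot1a fl/fl libraries 1 to 4 and 4018, 1627, 1452, 1297 and 2386 CPM in Pot1a wt/wt libraries 1 to 5. In promyelocyte-like cells it had 483, 560, 598 and 610 CPM in Pot1a fl/fl libraries 1 to 4 and 879, 565, 664, 576 and 600 CPM in Pot1a wt/wt libraries 1 to 5. No library of the second class reached the lowest of the first. The 4018 CPM of Pot1a wt/wt 1 came from 5 cells, of which 1 held 10 of the 11 counts of Siglech, a marker of plasmacytoid dendritic cells, in the class (1057 CPM in that library), and the part of such cells in the Cst3 level was not tested. Without that library Cst3 averaged 1594 CPM in monocyte/macrophage-like cells. Means in descending order were 1864 ± 880 CPM in monocyte/macrophage-like, 615 ± 110 CPM in promyelocyte-like, 264 ± 114 CPM in myelocyte-like, 248.7 ± 110 CPM in late neutrophil-like, 243 ± 112 CPM in B-lineage-like, 173 ± 70.6 CPM in unnamed and 66.5 ± 53.4 CPM in erythroid-like cells.

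Cst3 was lower in promyelocyte-like than in monocyte/macrophage-like cells by the edgeR quasi-likelihood test (adjusted p = 3.23e-10), at a log2 difference of -1.46 with an SE of 0.18, and 31.4% of genes were called in that contrast. In late neutrophil-like over promyelocyte-like cells the log2 fold was -0.82 (SE 0.28, adjusted p = 0.00885), and it was not called with median-ratio size factors (-0.59, adjusted p = 0.0797) or by DESeq2 (-0.59, adjusted p = 0.0886). The folds between neighbouring granulocyte stages, -0.47 in myelocyte-like over promyelocyte-like (adjusted p = 0.0932) and -0.35 in late neutrophil-like over myelocyte-like cells (adjusted p = 0.482), did not pass the test. That in myelocyte-like over promyelocyte-like cells was negative under each alternative and was called lower under 11 of them (-1.05 to -0.55), among them removal of doublets (-0.69, adjusted p = 0.0119) and leaving out Pot1a fl/fl 1, 2, 3 or 4 or Pot1a wt/wt 2 or 4 (-0.87 to -0.62). Nor did Cst3 pass in B-lineage-like over unnamed cells (log2 fold 0.34, adjusted p = 0.242, with 44.3% of genes called). In late neutrophil-like over B-lineage-like cells the fit, which rescales libraries by TMM, gave 0.76 (adjusted p = 0.0288, with 63.5% of genes called) although the mean CPM were close. A count of Cst3 was found in 79.5% of monocyte/macrophage-like cells at 1000 counts a cell, in 40.3% of promyelocyte-like cells and in 5.36% of erythroid-like cells. The pattern most like that of Cst3 was that of F13a1 (r = 0.77), the gene of coagulation factor XIII subunit A and a monocyte gene, and Napsa and Ly6c2 were among the first 5.

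Cst7 was a gene of the earliest granulocyte stage, opposite to the stefins. Promyelocyte-like cells held 136 of its 152 counts. There it had 355.5, 246, 299 and 229 CPM in Pot1a fl/fl libraries 1 to 4 and 41.9, 270.0, 292, 358 and 167 CPM in Pot1a wt/wt libraries 1 to 5, so that Pot1a wt/wt 1, the library with 6 such cells, was the low one. In late neutrophil-like cells it had 0 counts in all 9 libraries, 0 of 159404 counts and 0 of 89 cells, which allows a share of cells with a count of up to 3.37%. With a floor of 3 counts over all late neutrophil-like cells (18.8 CPM), Cst7 at 280.1 CPM over all promyelocyte-like cells was at least 14.9-fold higher. In myelocyte-like cells it averaged 11.2 ± 16.1 CPM (n = 8).

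Because Cst7 and Cstb did not pass the filter of the fit, libraries were compared within pairs by an exact sign-flip permutation test, two-sided, chosen after their values were seen, with p-values adjusted over 12 comparisons. Cst7 was higher in promyelocyte-like than in late neutrophil-like cells in 9 of 9 libraries, with a mean difference of 251 ± 98.8 CPM (SD, n = 9, exact p = 0.00391, adjusted p = 0.00938), and 0.00391 is the smallest p that 9 pairs allow. Over myelocyte-like cells it was higher in 8 of 8 libraries (226 ± 94.3 CPM, exact p = 0.00781, adjusted p = 0.0156). Over the other 4 haematopoietic classes it was higher in 9 of 9 libraries each (exact adjusted p = 0.00938 for each). The genes most like Cst7 were Gm11505 (r = 0.842), Mpo (0.793), which encodes myeloperoxidase, and Ctsg, Nkg7 and Prtn3 (0.759 to 0.775). Ctsg and Prtn3 encode serine proteases that cathepsin C activates.

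Cstb was low and broad, with 186 counts. Its means were 145 ± 146 CPM in monocyte/macrophage-like, 125 ± 110 CPM in promyelocyte-like, 104 ± 97.9 CPM in B-lineage-like, 96.5 ± 99.9 CPM in late neutrophil-like, 60.5 ± 51.4 CPM in unnamed, 28.5 ± 60.3 CPM in myelocyte-like (7.71 CPM without Pot1a wt/wt 5) and 14.5 ± 20.1 CPM in erythroid-like cells. In monocyte/macrophage-like cells 3 of 9 libraries held 0 counts, all of them Pot1a wt/wt. Pot1a fl/fl libraries ran from 175 to 454 CPM there (21 counts) and Pot1a wt/wt libraries from 0 to 133 CPM (3 counts), a difference that was not tested. In promyelocyte-like cells the order was the other way, with 42.7 to 76.2 CPM in Pot1a fl/fl and 73.6 to 338 CPM in Pot1a wt/wt libraries. None of 6 comparisons of monocyte/macrophage-like cells with another class, each over both genotypes, passed the exact sign-flip test. The nearest was that with erythroid-like cells (difference 131 ± 153 CPM, n = 9, exact p = 0.0312, adjusted p = 0.0536). A missed threshold does not show that these levels were alike. No gene had a pattern close to that of Cstb (highest r = 0.531, with Tmsb10).

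Of 11 genes for cysteine cathepsins and legumain, the proteases that these inhibitors bind, 3 passed the filter of the class fit: Ctsb, Ctsc and Ctss. All 3 were lower in each granulocyte stage than in monocyte/macrophage-like cells (24.9% of genes called at the myelocyte-like stage), Ctss by log2 folds of -4.16, -6.36 and -5.07 in promyelocyte-like, myelocyte-like and late neutrophil-like cells. In late neutrophil-like over promyelocyte-like cells, 1 of the 3 was called, under the 55.6% of all genes, namely Ctsc, which encodes cathepsin C, the protease that cystatin F restrains (log2 fold -3.92, SE 1.48, adjusted p = 0.0204), and the median over the 3 was -0.91 against -0.26 over all genes. In myelocyte-like over promyelocyte-like cells none of the 3 was called (Ctsc -2.14, adjusted p = 0.0775). Of 23 other cystatins and genes of the stefin cluster and its relatives, 4 passed the filter: Gm5483 and BC117090 of the cluster, and Ngp and Camp, whose propeptides carry a cystatin-like fold. All 4 were higher in myelocyte-like and in late neutrophil-like than in promyelocyte-like cells, where 24.6% and 22.9% of all genes were called higher. Their median log2 folds were 3.85 and 4.41. Ngp and Camp were among the genes that led the myelocyte-like cluster, so their rise follows from how the classes were named. BC117090 had 55 myelocyte-like and 42 late neutrophil-like of its 108 counts. These calls and medians are therefore a description and are not used as support. In late neutrophil-like over myelocyte-like cells 1 of the 4 was called, where 19.8% of all genes were. It was Gm5483 (log2 fold 0.90, SE 0.23, adjusted p = 0.00313, edgeR quasi-likelihood test).

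By genotype, no member of the group was called. Over all cells Stfa1 had 1885, 3903, 8304 and 1815 CPM in Pot1a fl/fl libraries 1 to 4 and 4304, 995, 241, 1396 and 4395 CPM in Pot1a wt/wt libraries 1 to 5. BC100530 had 2856, 5489.8, 10623 and 2726 CPM in Pot1a fl/fl libraries 1 to 4 and 6494, 1321, 873, 1719.9 and 4479 CPM in Pot1a wt/wt libraries 1 to 5. The groups overlapped for both genes. Cst7 had 114, 81.8, 58.6 and 44.3 CPM in Pot1a fl/fl libraries 1 to 4 and 3.97, 39.1, 36.6, 59.4 and 48.8 CPM in Pot1a wt/wt libraries 1 to 5, and here too the groups overlapped.

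In the test over all cells (edgeR quasi-likelihood test, Benjamini-Hochberg adjustment over 4559 genes), 3 genes were called in all, or 0.0658% of those tested, and 0 of the 9 genes were among them. At an unadjusted p under 0.05 there were 364 genes. Of the 9 only Cst7 was among them (edgeR log2 fold 1.09, SE 0.42, adjusted p = 0.492). DESeq2 also called 0 of the 9. The other log2 folds were 0.91 for BC100530, 0.86 for Stfa1, 0.58 for Stfa2l1, 0.31 for Stfa3, 0.24 for Cst3, 0.09 for Cstb, 0.05 for 2010005H15Rik and -0.03 for Stfa2. Without the filter on low counts BC100530 was among 69 genes called (adjusted p = 0.0475), the only call of a member in 17 alternatives.

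Granulocyte-like cells were 43.25% ± 11.03 of the cells of a library in Pot1a fl/fl marrow (33 to 58%, n = 4) and 30.6% ± 5.15 in Pot1a wt/wt marrow (24.2 to 35%, n = 5). These ranges overlapped and the shares were not tested, and in sums over all cells fewer cells of a type and less RNA per cell cannot be told apart. Within granulocyte-like cells (1427 genes tested, 0.0701% called), 0 of 7 members were called by edgeR and 0 by DESeq2, and 57 genes reached an unadjusted p under 0.05, none of them a member. The log2 folds there were 0.33 for BC100530, 0.31 for Stfa1, 0.29 for Cst7, -0.06 for Stfa2l1, -0.20 for Cst3, -0.27 for Stfa3 and -0.62 for Stfa2, with a median of -0.06 over the 7 members and -0.02 over all genes. Single libraries set several of these: without Pot1a fl/fl 3 that of BC100530 was -0.37, and without Pot1a wt/wt 1 that of Stfa2 was 0.33.

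In promyelocyte-like cells, 4 members could be tested by genotype and none was called (0.118% of 851 genes were), Cst7 having a log2 fold of 0.00 (SE 0.31). In B-lineage-like cells 0 of 3 members and in erythroid-like cells 0 of 2 were called, in contrasts with 0% called by edgeR. At an unadjusted p under 0.05 there were 31 genes in promyelocyte-like, 50 in B-lineage-like and 25 in erythroid-like cells, where DESeq2 was not run. The myelocyte-like, late neutrophil-like and monocyte/macrophage-like classes had too few libraries with at least 10 cells for a test by genotype.

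**Figure D5:**
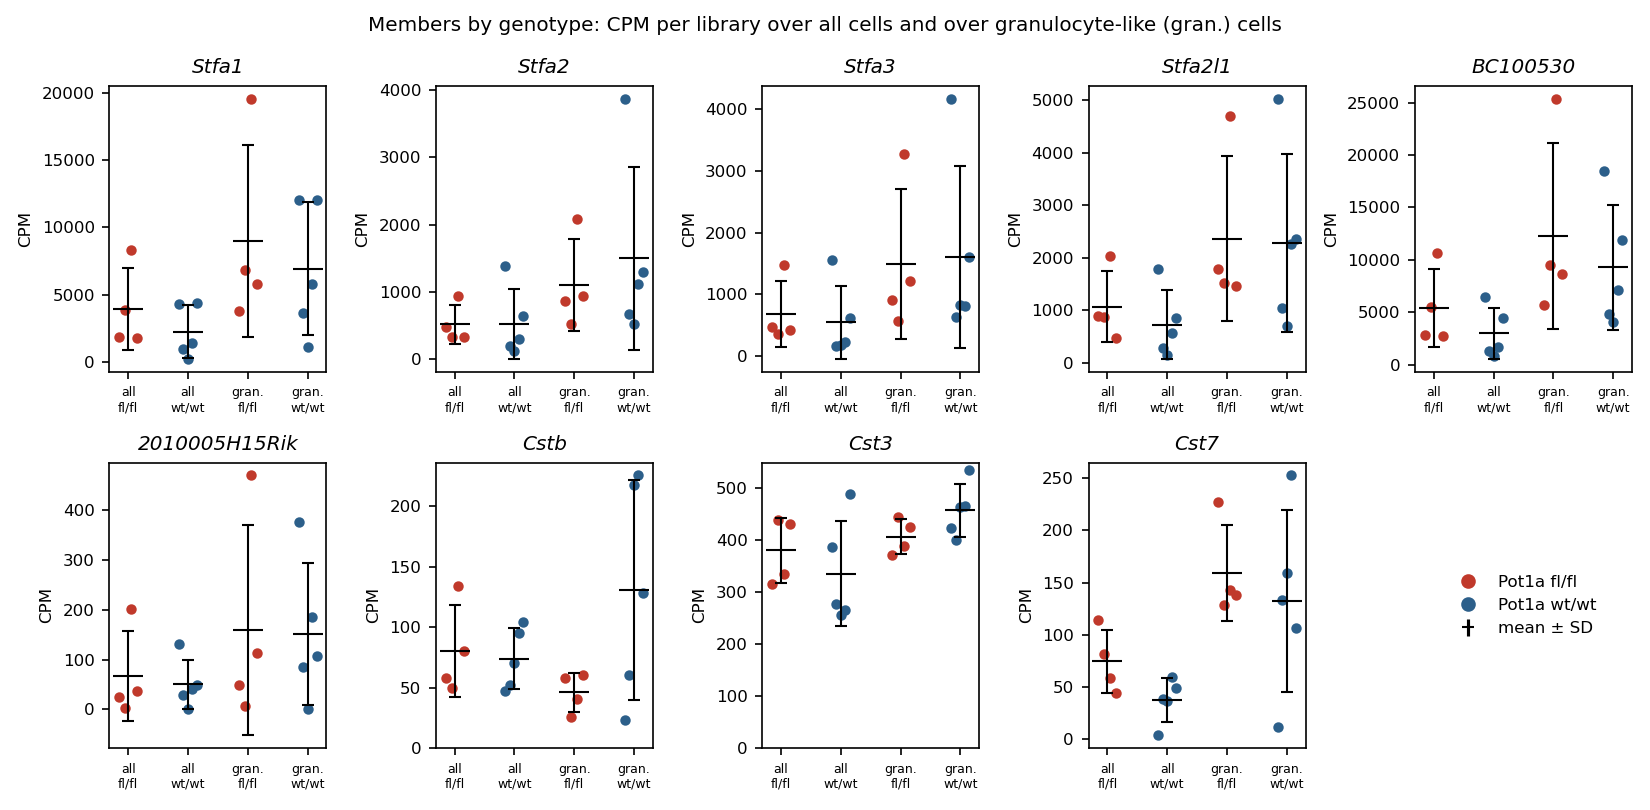
CPM of each gene per library (points) over all cells and over granulocyte-like cells (gran.), Pot1a fl/fl (4 libraries) left of Pot1a wt/wt (5 libraries), with the mean and SD; y axes differ between panels. The groups overlap in every panel.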

How the data were processed

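Drop-seq libraries of whole marrow were sequenced by the authors on a NextSeq 500 and, per the submitters' processing notes, aligned with STAR to mm10 and tabulated with the Drop-seq software of the McCarroll Lab. The deposited tables hold counts per gene and barcode, 100 barcodes a library in 9 libraries, not normalized. Whether they are reads or molecules, how barcodes were chosen and how reads matching several genes were treated is not given in the sources used here; they were treated as molecule counts. Totals of 119459 to 465277 counts limit the precision, and intervals and floors cover counting error only.

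Barcodes with at least 200 counts and at most 25% mitochondrial counts were kept. Libraries were integrated by anchors (Seurat 5.3.0; 2000 variable genes without the 9 genes, 20 components, k.filter 50, k.weight 30) and clustered at resolution 1. A class name needed at least 3 markers among the 50 leading genes. The 17 doublets marked by Scrublet (scanpy 1.11.5) were kept. Counts summed per library and class (at least 5 cells; 10 by genotype, with at least 3 libraries a group) entered the quasi-likelihood test of edgeR 4.0.16 in R 4.3.3, after filterByExpr and TMM scaling, at an adjusted p of 0.05, with DESeq2 1.42.0 as an alternative. The script was tested on simulated data. CPM are scaled to 1000000 summed counts and not divided by length. Named genes are the 9 members and, for likeness, the first 5 genes by Pearson's r of log2(CPM + 10). Members and lists were chosen with earlier results of these data known. The replicate numbers did not pair the libraries. Alternatives covered scaling, filtering, clustering, doublets, sex as a covariate, shared barcodes and each library left out.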

Additional observations from a re-analysis of the deposited data

Results flagged for a closer look

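Of 101 groups of 4 or 5 libraries of a genotype looked at, 16 held a library far from the rest of its group by Dixon's test. Chance does so in about 1 of 20 groups if values are normal and groups are independent. Here levels were skewed, classes were nested and several genes were near copies, so that rate is only a guide. Most concerned 2 libraries. Pot1a wt/wt 1 stood apart in promyelocyte-like cells for BC100530 (15740 CPM, others 49.1 to 3666 CPM), Stfa2l1 (2512 CPM, others 0 to 167 CPM), Stfa3 (2386 CPM, others 0 to 167 CPM) and Stfa2 (377 CPM, others 0 to 99.4 CPM), from 6 cells. It also stood apart in myelocyte-like cells for Stfa2 (3120.0 CPM, others 169 to 523 CPM) and 2010005H15Rik (98.3 CPM, others 0 CPM), and in granulocyte-like cells for Stfa2 (3867 CPM, others 521 to 1301 CPM) and Stfa3 (4161 CPM, others 630.0 to 1599 CPM).

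Pot1a fl/fl 3, the shallowest library, stood apart over all cells for Stfa3 (1473 CPM, others 366 to 479 CPM) and 2010005H15Rik (200.9 CPM, others 3.56 to 36.5 CPM), in myelocyte-like cells for Stfa2 (2607 CPM, others 421 to 508 CPM) and in granulocyte-like cells for Stfa2l1 (4697 CPM, others 1461 to 1782 CPM). Pot1a fl/fl 1 did so for Cst7 in granulocyte-like cells (227 CPM, others 128 to 143 CPM) and in monocyte/macrophage-like cells (87.7 CPM, others 0 CPM). Pot1a fl/fl 2 held the one promyelocyte-like count of 2010005H15Rik (13.7 CPM, others 0 CPM), and Pot1a wt/wt 5 stood apart for Cstb in myelocyte-like cells (174 CPM, others 0 CPM). What set these libraries apart was not tested.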

How the results depend on the processing

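The later granulocyte stages stayed above promyelocyte-like cells for all 6 stefins under every alternative that gave these contrasts, with 2010005H15Rik given as a description. The number of members called in late neutrophil-like over myelocyte-like cells was 4, or 2 when the whole stefin cluster was left out of the clustering, and 4 to 5 with single libraries left out. It was 3 without integration and without the filter, where Stfa2l1 was lost, and 3 by DESeq2, where 2010005H15Rik was lost. With members clustered it was again 4, with Stfa1 called lower in place of Stfa2l1. In the same contrast the log2 folds of Stfa1 and BC100530 reversed to -0.24 and -0.19 without a filter on low counts, -1.06 and -0.71 without integration, -1.24 and -0.70 with members clustered, and -0.97 and -0.52 without the stefin cluster. Cst3 was called lower in myelocyte-like over promyelocyte-like cells under 11 alternatives. At resolution 0.6 there were 192 myelocyte-like and 0 late neutrophil-like cells. With stages set by the highest marker share, 80 of the 89 late neutrophil-like cells were scored as myelocyte-like and 9 as late. No late contrast could be had in either case, so the late stage itself depends on how cells were divided. The promyelocyte-like stage did so too. Of its 134 cells, 35 were scored as myelocyte-like and 1 as late by the highest marker share. It held 87 cells without integration and 76 without the stefin cluster. By genotype over all cells 0 members were called, or 1 without the filter. Reversed genotype folds, none called, were 0.58 (replicate block) and 0.074 (sex covariate) for Stfa2 over all cells, -0.055 (replicate block), -0.13 (libraries sharing barcodes as 1) and -0.33 (sex covariate) for 2010005H15Rik, and -0.020 (sex covariate) for Cstb. Within granulocyte-like cells they were 0.030 (no filter), 0.18 (replicate block) and 0.014 (no stefin cluster) for Stfa2l1 and 0.086 (replicate block) for Stfa3. The block changed no call of a member (0 called with it and without it); same-numbered libraries correlated at -0.19 to -0.01. With single libraries left out, folds over all cells ranged over -1.07 to 0.86 (2010005H15Rik), -0.18 to 0.24 (Cstb), -0.50 to 0.84 (Stfa2) and -0.42 to 1.30 (Stfa3), and within granulocyte-like cells over -0.37 to 0.91 (BC100530), -0.47 to 0.75 (Stfa1), -1.15 to 0.33 (Stfa2), -1.03 to 0.69 (Stfa3) and -0.68 to 0.64 (Stfa2l1). The alternatives without the stefin cluster and with shared cells counted once were chosen after seeing the data. The causes were not tested.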
